A study of Mus musculus with 18 samples.

Results

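Bile acid and organic anion transporters of the liver were followed through 18 mouse livers. The set holds 10 genes, taken by symbol from the deposited count table: Slc10a1, Slco1b2, Slco1a1, Slco1a4, Abcb11, Abcb4, Abcc2, Abcc3, Abcc4 and Slc51b. They are 10 of the 55487 genes in that table, and all 10 passed the filter on low counts in every comparison. The genes were chosen by name and not by how they moved in these livers, although earlier results of the same data were known at the time.

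The livers came from male C57BL/6J mice, bought as young adults, that received an adeno-associated virus 1 week before the diet began. The virus carried GFP or human LIPA, which encodes lysosomal acid lipase (LAL), the enzyme that hydrolyses cholesteryl esters and triglycerides inside lysosomes. Its serotype and the TBG promoter direct expression to hepatocytes. CON-GFP mice received the GFP virus and a purified control diet. FPC-GFP mice received the same virus and the FPC diet, which is high in fat with added fructose, palmitate and cholesterol and was given with sugared drinking water. FPC-LIPA mice received the LIPA virus and the FPC diet. Both diets were fed for 16 weeks and livers were taken after a short fast. Each group had 6 mice with 1 library per mouse, every mouse carried a virus, and LIPA mice on the control diet are not analysed here. A library is named below by its group and the mouse number of its label.

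Hepatocytes take bile acids up from portal blood across the basolateral membrane, mainly through NTCP (Slc10a1), while the OATP proteins (the Slco1 genes) carry bile acids, bilirubin, hormones and drugs. Bile acids are then pumped into the canaliculus by BSEP (Abcb11), phospholipid is flipped into bile by MDR2 (Abcb4), and conjugated organic anions leave through MRP2 (Abcc2). MRP3 (Abcc3), MRP4 (Abcc4) and the heteromeric transporter OSTα-OSTβ (Slc51a and Slc51b) return bile acids and conjugates to blood, and in rodents these basolateral exporters are known to rise in cholestasis. The farnesoid X receptor (FXR, Nr1h4), PXR (Nr1i2), CAR (Nr1i3) and NRF2 (Nfe2l2) are known regulators of this set.

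The stretches before the annotated starts of 5 of these genes are shown, since the text returns to them: Abcc4 and Slco1a4 had the greatest rise and fall of the set on the diet, Slc51b was called with LIPA, and Abcb11 and Slco1b2 carry a motif that Slc51b also has. Each is the 250 bases before the start, read 5′ to 3′ on the gene's strand, in RefSeq's annotation of GRCm38.p6. Capitals mark matches to 2 motifs that were chosen after the sequences were seen and were searched on both strands: an inverted repeat of the kind FXR binds (GGNCANTNNCC) and the core of the antioxidant response element that NRF2 binds (TGACNNNGC).
Abcc4, chr14:118706220-118706469: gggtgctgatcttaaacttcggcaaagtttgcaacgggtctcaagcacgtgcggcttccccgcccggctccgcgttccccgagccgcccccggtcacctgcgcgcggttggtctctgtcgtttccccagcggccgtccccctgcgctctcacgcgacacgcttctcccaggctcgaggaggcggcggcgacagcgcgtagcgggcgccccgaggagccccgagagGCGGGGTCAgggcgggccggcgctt
Slco1a4, chr6:141856221-141856470: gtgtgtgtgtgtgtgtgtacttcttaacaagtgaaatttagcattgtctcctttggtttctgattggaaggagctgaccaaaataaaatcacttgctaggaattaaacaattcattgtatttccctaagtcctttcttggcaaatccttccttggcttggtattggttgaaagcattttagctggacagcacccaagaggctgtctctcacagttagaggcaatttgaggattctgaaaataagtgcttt
Slco1b2, chr6:141629268-141629517: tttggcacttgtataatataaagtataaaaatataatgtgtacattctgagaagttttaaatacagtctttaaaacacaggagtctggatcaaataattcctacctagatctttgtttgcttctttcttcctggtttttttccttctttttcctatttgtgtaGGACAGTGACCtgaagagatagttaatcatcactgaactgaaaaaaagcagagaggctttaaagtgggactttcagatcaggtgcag
Abcb11, chr2:69342617-69342866: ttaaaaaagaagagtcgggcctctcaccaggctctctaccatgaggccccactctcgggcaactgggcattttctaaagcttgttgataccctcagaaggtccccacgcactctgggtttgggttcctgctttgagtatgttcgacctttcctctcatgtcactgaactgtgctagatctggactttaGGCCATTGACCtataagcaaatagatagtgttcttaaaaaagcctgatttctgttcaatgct
Slc51b, chr9:65422774-65423023: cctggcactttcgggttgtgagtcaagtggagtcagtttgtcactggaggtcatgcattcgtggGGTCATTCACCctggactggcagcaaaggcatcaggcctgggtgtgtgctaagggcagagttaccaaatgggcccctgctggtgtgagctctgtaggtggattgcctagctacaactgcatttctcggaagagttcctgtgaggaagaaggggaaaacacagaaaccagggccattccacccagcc
Slco1b2 lies on the plus strand and the other 4 on the minus strand. In the GENCODE annotation, used for the gene positions below, Slc51b starts within the marked match, so much of its window lies inside that gene model.

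Of the members, 9 had an entry in the promoter table, in 11 windows. The inverted repeat was found in Abcb11, where it ended 52 bases before the start, in Slco1b2 and in Slc51b, and in 2.75% of all 32851 windows of the same length. The antioxidant element core was found in both windows of Abcc4, which in the window shown lay on the opposite strand 25 to 17 bases before the start, and in Abcc2, against 10.2% of all windows. Slco1a4 held neither motif in this window. The match in Abcc2 and the match in the other window of Abcc4 lie inside the GENCODE gene models. Such a match is a description of the letters and not of binding.

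Total counts per library were between 16632146 and 37739301. The 3 shallowest libraries were CON-GFP 2, FPC-GFP 20 and FPC-LIPA 37, and they carry sample sheet numbers outside the run of 55 to 68 that all other libraries but CON-GFP 1 (73) have. Transcripts of ribosomal proteins made up 6.48 to 8.15% of the counts in FPC-LIPA 36, 37 and 39, against 2.16 to 2.95% in the other FPC-LIPA libraries and 1.44 to 2.54% in the GFP groups. Fits without FPC-LIPA 36, 37 and 39 are given for some results that rest on them, but not for every member and not for the cell markers. Mouse Lipa did not pass the test with the LIPA virus (FPC-LIPA libraries held 254 to 385 CPM and FPC-GFP libraries 240.2 to 406 CPM, log2 fold change −0.16 ± 0.18 SE, adjusted p = 0.51 by edgeR's quasi-likelihood test). The human transgene has no row of its own among the mouse genes, so the table does not check it. CPM is the count scaled to library size with TMM factors, and fold changes below are on the log2 scale with their SE.

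**Figure D1:**
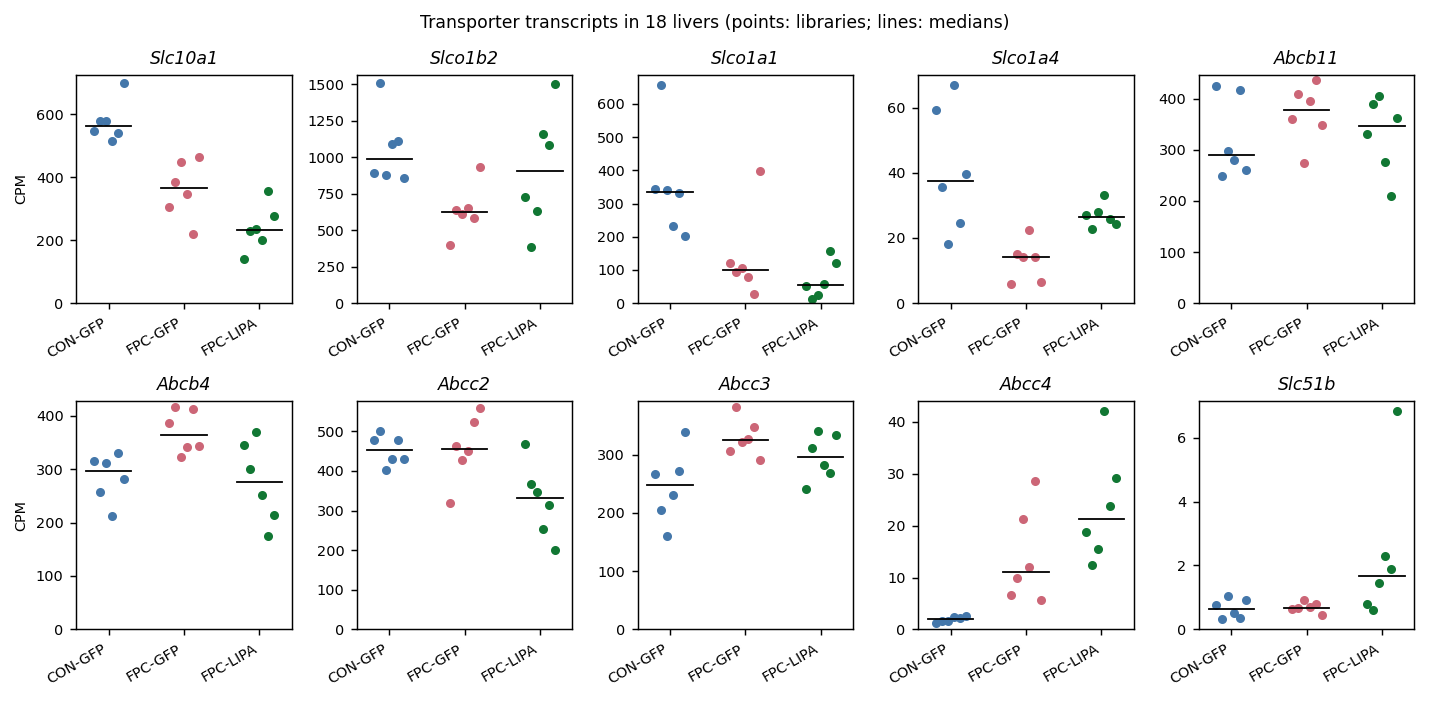
CPM of the 10 transporters (linear axes from 0) in each of the 6 libraries of CON-GFP, FPC-GFP and FPC-LIPA, with points for libraries and lines for medians. Abcc4 lies at 1.30 to 2.51 CPM in CON-GFP and at 5.64 to 42.0 CPM in all libraries of both FPC groups, and Slc10a1 lies lower in both FPC groups than in CON-GFP without overlap.

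Per kilobase of exon, the uptake transporters Slc10a1 and Slco1b2 led the control liver. In CON-GFP the mean level was 262 ± 29.5 RPKM for Slc10a1 and 214 ± 50.6 RPKM for Slco1b2 (SD, n = 6), and these neighbours overlapped. Slco1a1 (66.5 ± 30.6 RPKM), Abcb11 (62.6 ± 15.3 RPKM), Abcc2 (53.1 ± 4.38 RPKM), Abcc3 (43.1 ± 10.8 RPKM) and Abcb4 (30.3 ± 4.72 RPKM) followed, each overlapping the next. Slco1a4 (6.35 ± 2.99 RPKM), Slc51b (0.924 ± 0.422 RPKM) and Abcc4 (0.304 ± 0.0784 RPKM) stood apart below them, and no library of one reached the range of the next. In FPC-LIPA, Slco1b2 was first (186 ± 82.6 RPKM) and Slc10a1 the next (109 ± 33.0 RPKM), still overlapping. There Slco1a1 lay behind Abcb4 (13.4 ± 10.8 against 29.4 ± 8.08 RPKM), and Abcc4 (3.70 ± 1.69 RPKM) lay beside Slco1a4 (4.19 ± 0.570 RPKM). FPC-GFP already had Slco1a1 behind Abcb4 (25.9 ± 25.1 against 39.5 ± 4.27 RPKM). It also had Abcc4 (2.19 ± 1.42 RPKM) beside Slco1a4 (2.03 ± 0.957 RPKM). Each pair overlapped in both FPC groups.

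FPC-GFP was compared with CON-GFP to ask what the diet did to these transporters in GFP livers. All 4 uptake transporters fell (adjusted p under 0.05), Abcc4 rose 7.12-fold, Abcb4 rose 1.29-fold, and Abcb11, Abcc2, Abcc3 and Slc51b did not pass. Under the study's threshold of a 2-fold change and an adjusted p under 0.05, 3 of the 10 members were differentially expressed (DE), 1 higher and 2 lower, against 7.2% of all 14307 genes tested (4.76% higher and 2.44% lower). By the adjusted p alone 6 of 10 passed, 2 higher and 4 lower, against 23.8% of all genes (12.9% higher and 10.9% lower). The groups did not overlap for 2 of 10 members, against 10.6% of all genes. The median log2 fold change was 0.03 over the members and 0.01 over all genes.

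**Figure D2:**
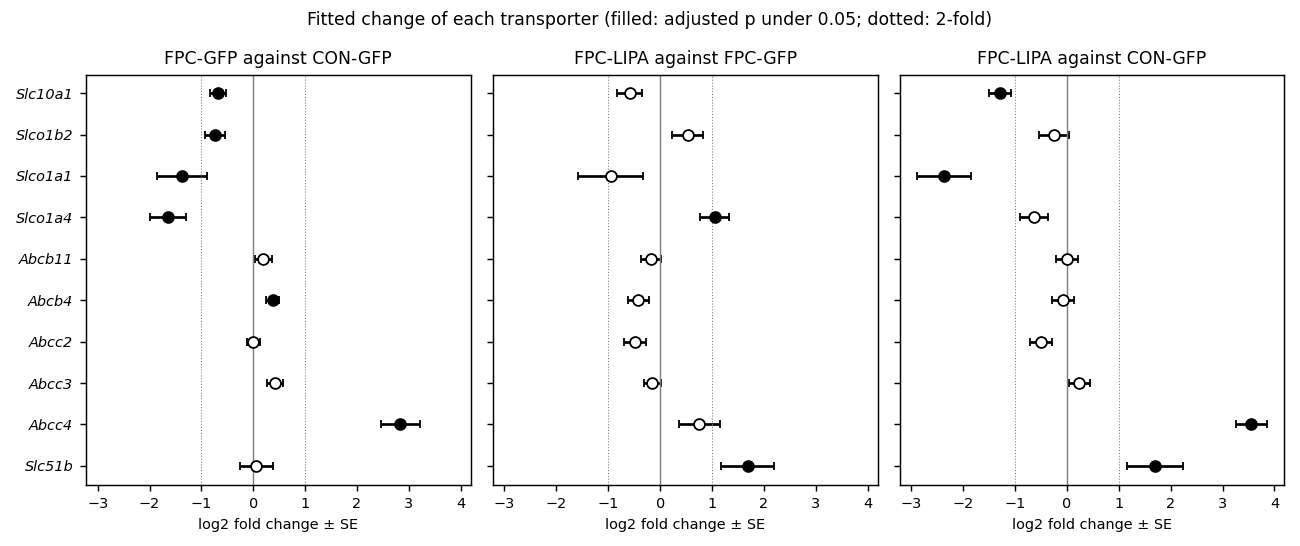
Log2 fold change (horizontal axis) of each transporter in the 3 comparisons, with SE as bars, filled points for an adjusted p under 0.05 and dotted lines at a 2-fold change. On the diet the 4 uptake genes lie left of 0 and Abcc4 at 2.83, and with LIPA only Slco1a4 (1.05) and Slc51b (1.69) are filled.

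Among uptake transporters, Slc10a1 (ENSMUSG00000021135, chr12:80953183-80968705 in GRCm38, the build of all positions given), the sodium-dependent bile acid carrier, had 514, 563 and 699 CPM as the lowest, median and highest library of CON-GFP and 221, 366 and 465 CPM in FPC-GFP. No FPC-GFP library reached the lowest CON-GFP library. The fitted change was −0.68 ± 0.16 (adjusted p = 0.00866), a 1.60-fold fall, and it passed under all 23 alternatives of the processing (adjusted p 0.000433 to 0.0458).

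The 3 OATP genes lie together on chromosome 6 (Slco1b2 at chr6:141629518-141686646, Slco1a4 at chr6:141805440-141856199 and Slco1a1 at chr6:141907282-141946962) and are related in sequence. How reads matching several places were counted is not given in the sources used here, so reads could be split among them. Slco1b2 (ENSMUSG00000030236), the main OATP of mouse hepatocytes, had 858, 990.2 and 1511 CPM in CON-GFP and 400.5, 625 and 935 CPM in FPC-GFP. The groups overlapped only through the shallow library FPC-GFP 20, the highest of its group, which lay above the 3 lowest of CON-GFP. Slco1b2 fell 1.67-fold (−0.74 ± 0.19, adjusted p = 0.0128), and passed under 22 of 23 alternatives, the exception being the fit of all 18 libraries together (adjusted p = 0.0970).

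Slco1a4 (ENSMUSG00000030237), which carries bile acids, steroid conjugates and digoxin, had 18.0, 37.6 and 67.1 CPM in CON-GFP and 5.83, 14.2 and 22.3 CPM in FPC-GFP. The groups overlapped in CON-GFP 3 at 18.0 CPM and FPC-GFP 16 at 22.3 CPM. It fell 3.14-fold (−1.65 ± 0.35, adjusted p = 0.00461) and passed under all 23 alternatives (adjusted p 0.000546 to 0.0348).

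Slco1a1 (ENSMUSG00000041698), a male-predominant OATP of mouse liver, had 201, 336 and 657 CPM in CON-GFP and 26.1, 98.8 and 399 CPM in FPC-GFP. In FPC-GFP, 5 libraries lay between 26.1 and 121 CPM and FPC-GFP 20 stood alone at 399 CPM. The change of −1.37 ± 0.48 (2.59-fold lower) passed only just, with an adjusted p of 0.0499. It kept an adjusted p under 0.05 in 8 of 23 alternatives. Without FPC-GFP 20 it was −2.07 (adjusted p = 0.00186), and without CON-GFP 2, at 657 CPM, it was −1.09 (adjusted p = 0.125).

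The OATP transcripts are poor in G and C. The GC content of the longest transcript was 38.5% for Slco1a1, 38.6% for Slco1b2 and 40.3% for Slco1a4, at the 2.92, 3.05 and 7.28 percentile of tested genes. Libraries differed in how counts leaned with GC content. Per 10 points of GC the mean log2 slope was −0.02 in CON-GFP, 0.22 in FPC-GFP and −0.21 in FPC-LIPA. The lowest slopes were in FPC-LIPA 37 (−0.87), FPC-LIPA 36 (−0.59) and CON-GFP 2 (−0.49), and the highest was in FPC-LIPA 33 (0.45). With the GC trend of each library removed, the diet falls were −0.42 for Slco1b2 (adjusted p = 0.0280), −1.40 for Slco1a4 (adjusted p = 0.0111) and −1.07 for Slco1a1 (adjusted p = 0.0731).

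Of the canalicular exporters, Abcb11 (ENSMUSG00000027048, chr2:69238282-69342616), the bile salt export pump, had 249.8, 289 and 425 CPM in CON-GFP and 275, 377 and 436 CPM in FPC-GFP. Both groups spanned nearly the same range, and the change of 0.19 ± 0.16 did not pass (adjusted p = 0.394). Abcb4 (ENSMUSG00000042476, chr5:8893717-8959231), the phospholipid flippase of bile, had 212, 296 and 330.0 CPM in CON-GFP and 323, 365 and 416 CPM in FPC-GFP. Only CON-GFP 7 reached the FPC-GFP range, and the change of 0.37 ± 0.13 passed (adjusted p = 0.0434), although it passed in only 10 of 23 alternatives. Abcc2 (ENSMUSG00000025194, chr19:43782192-43840740), the exporter of conjugated bilirubin, had 402, 454 and 499.8 CPM in CON-GFP and 319, 455 and 559 CPM in FPC-GFP, with medians side by side and a fitted change of 0.0027 ± 0.13 (adjusted p = 0.990).

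Of the basolateral exporters, Abcc4 (ENSMUSG00000032849, chr14:118482692-118706219), which carries bile acids with glutathione, cyclic nucleotides and other anions to blood, had 1.30, 1.97 and 2.51 CPM in CON-GFP and 5.64, 11.0 and 28.6 CPM in FPC-GFP. The groups did not overlap, and the libraries of FPC-GFP were spread widely (CV 64.8%, against 25.8% in CON-GFP). Abcc4 rose by 2.83 ± 0.38 on the log2 scale, or 7.12-fold (adjusted p = 0.000257), and passed under all 23 alternatives (log2 fold change 2.50 to 3.03). Abcc3 (ENSMUSG00000020865, chr11:94343295-94392997), which exports glucuronides and bile acids, had 161, 249 and 339 CPM in CON-GFP and 292, 325 and 382 CPM in FPC-GFP. Its change of 0.41 ± 0.15 did not pass (adjusted p = 0.0623) but passed under 3 alternatives, among them the fit without CON-GFP 8 (0.52, adjusted p = 0.0184). Slc51b (ENSMUSG00000053862, chr9:65412714-65422955) had 0.322, 0.643 and 1.04 CPM in CON-GFP and 0.461, 0.680 and 0.914 CPM in FPC-GFP, from 5 to 28 reads per library, and changed by 0.06 ± 0.31 (adjusted p = 0.906).

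FPC-LIPA was compared with FPC-GFP to ask what hepatocyte LIPA did on the FPC diet. Slco1a4 rose 2.07-fold and Slc51b 3.22-fold, and the other 8 members did not pass. These 2 of 10 members were DE, both higher, against 11.4% of all 14620 genes tested (10.3% higher and 1.11% lower). The same 2 passed by the adjusted p alone, against 21.2% of all genes (14.4% higher and 6.87% lower). The groups did not overlap for 1 of 10 members, against 7.58% of all genes. The median log2 fold change was −0.16 over the members and 0.04 over all genes. Both calls ended (0 of 10 members DE) without FPC-LIPA 36, 37 and 39, and with the libraries of sample sheet numbers 55 to 68 alone, where 116 and 96 genes, respectively, were DE in all. The count was also 0 without FPC-LIPA 36, without FPC-GFP 11 or without FPC-GFP 20.

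Slco1a4 had 22.7, 26.4 and 33.3 CPM in FPC-LIPA against 5.83, 14.2 and 22.3 CPM in FPC-GFP. The groups did not overlap, by a margin between FPC-LIPA 33 at 22.7 CPM and FPC-GFP 16 at 22.3 CPM, and the FPC-LIPA libraries were close to each other (CV 13.6%). The change was 1.05 ± 0.28 (adjusted p = 0.0235). It was 1.00 (adjusted p = 0.137) without FPC-LIPA 36, 37 and 39, 0.93 (adjusted p = 0.0785) within sheet numbers 55 to 68, 0.97 (adjusted p = 0.0569) without FPC-LIPA 36, 0.90 (adjusted p = 0.0642) with library size alone, and 0.63 (adjusted p = 0.147) with the GC trend removed. Without FPC-GFP 11 (0.89, adjusted p = 0.0449) or FPC-GFP 20 (0.91, adjusted p = 0.0490) it still passed by the adjusted p but fell short of 2-fold.

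Slc51b, which encodes the β subunit of the bile acid exporter OSTα-OSTβ, had 0.592, 1.67 and 6.83 CPM in FPC-LIPA, from 24 to 86 reads per library. The highest value was that of FPC-LIPA 37, and 2 FPC-LIPA libraries lay within the FPC-GFP range. The change was 1.69 ± 0.51 (adjusted p = 0.0335), and without FPC-LIPA 37 it was 0.99 (adjusted p = 0.0838). The call was also lost without any 1 of the FPC-GFP libraries (adjusted p 0.0546 to 0.0678), where the value stayed between 1.60 and 1.78, and it held in 10 of 23 alternatives. It was 0.44 (adjusted p = 0.540) without all 3 libraries of high ribosomal share, and 1.02 (adjusted p = 0.0942) with the trend on transcript length removed (Slc51b, at 709 bases of exon, is shorter than all but 4.26% of tested genes). Its partner Slc51a, without which OSTβ is not known to transport, had 3 reads in all 18 libraries together. Rasl12 overlaps Slc51b on the opposite strand, and the strand setting of the counting is not given in the sources used here.

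The other uptake genes did not pass with LIPA. Slc10a1 had 141, 233 and 356 CPM in FPC-LIPA, with a change of −0.59 ± 0.24 (adjusted p = 0.0834) that passed in 3 of 24 alternatives (library size alone, all libraries in one fit, and length trend removed). Slco1a1 had 11.1, 54.1 and 158 CPM, with a change of −0.95 ± 0.62 (adjusted p = 0.259). That change lay between −2.22 and −0.26 over 24 alternatives. It passed in 1 of them, at −1.63 (adjusted p = 0.0440) with the GC trend removed. Slco1b2 had 387, 905 and 1502 CPM, a range that covered every GFP library except CON-GFP 2, and its change of 0.53 ± 0.30 (adjusted p = 0.194) turned to −0.13 with the GC trend removed and to −0.13 without FPC-LIPA 36, 37 and 39.

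None of the canalicular exporters passed with LIPA. Abcb11 had 209, 346 and 405 CPM (−0.17 ± 0.20, adjusted p = 0.528), Abcb4 had 175, 276 and 369 CPM (−0.42 ± 0.20, adjusted p = 0.128) and Abcc2 had 201, 331 and 468 CPM (−0.49 ± 0.22, adjusted p = 0.109). Over 24 alternatives the change of Abcb4 lay between −0.53 and −0.12 and passed in 0. That of Abcc2 lay between −0.62 and −0.21 and passed in 1. Abcc3 had 242, 297 and 341 CPM (−0.15 ± 0.16, adjusted p = 0.495). Abcc4 had 12.5, 21.3 and 42.0 CPM, and its 0.76 ± 0.39 over FPC-GFP (adjusted p = 0.162) was 0.16 (adjusted p = 0.877) without FPC-LIPA 36, 37 and 39. Its level in FPC-GFP already spanned 5.64 to 28.6 CPM, so all 6 FPC-LIPA libraries lay above the FPC-GFP median and 2 above its highest library.

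Within FPC-LIPA some members differed between the libraries of high and low ribosomal share. In FPC-LIPA 36, 37 and 39, Slco1b2 (1085 to 1502 against 387 to 725 CPM), Abcc4 (23.7 to 42.0 against 12.5 to 18.8 CPM), Slc51b (1.90 to 6.83 against 0.592 to 1.45 CPM) and Slco1a1 (56.5 to 158 against 11.1 to 51.7 CPM) were higher than in FPC-LIPA 31, 33 and 34 without overlap. Abcc2 (201 to 314 against 347 to 468 CPM) and Abcb4 (175 to 251 against 301 to 369 CPM) were lower without overlap. The count, 6 of 10 members, stood beside 47.1% of all genes tested, a share not far from it. The other 4 members overlapped, Slco1a4 among them (24.4 to 33.3 against 22.7 to 28.0 CPM). The part of the ribosomal share in these differences was not tested.

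**Figure D3:**
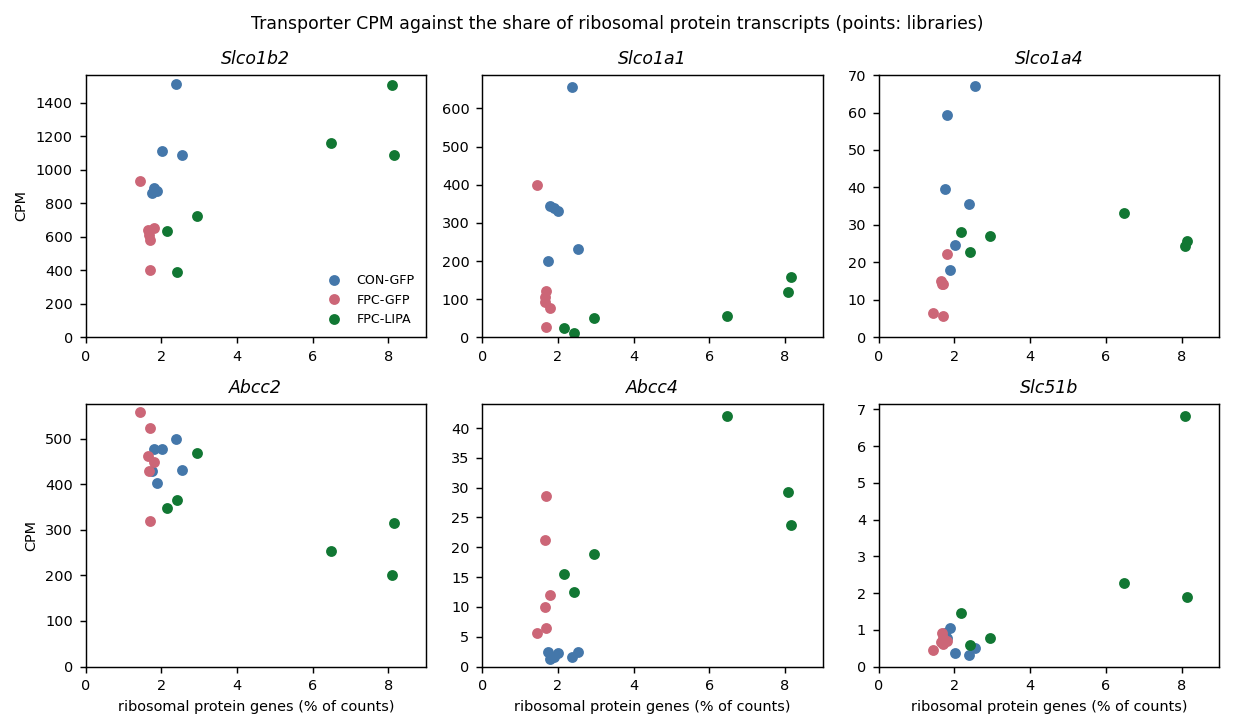
CPM of 6 transporters (vertical, linear from 0) against the percent of counts from ribosomal protein genes (horizontal), with 1 point per library coloured by group. The 3 FPC-LIPA libraries at 6.48 to 8.15% lie above the other FPC-LIPA libraries for Slco1b2, Slco1a1, Abcc4 and Slc51b and below them for Abcc2, while Slco1a4 overlaps.

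FPC-LIPA against CON-GFP uses the libraries of both earlier comparisons and is therefore given beside them and not as separate evidence. Slc10a1 was 2.46-fold lower (−1.30 ± 0.21, adjusted p = 0.000774) and Slco1a1 5.17-fold lower (−2.37 ± 0.52, adjusted p = 0.00518), while Abcc4 was 11.8-fold higher (3.55 ± 0.30, adjusted p = 8.69e-06) and Slc51b 3.26-fold higher (1.71 ± 0.54, adjusted p = 0.0341). These 4 of 10 members were DE, 2 in each direction, against 15.1% of all 14433 genes tested (11.8% higher and 3.25% lower), and the same 4 passed by the adjusted p alone, against 22.9%. Slc10a1, Slco1a1 and Abcc4 did not overlap between the groups, 3 of 10 members against 11.1% of all genes, and their calls held in all 24 alternatives. Slc51b held its call in 12 of 23 alternatives. It lost it without FPC-LIPA 37 (1.04, adjusted p = 0.100), without FPC-LIPA 36 or 39 or any CON-GFP library but CON-GFP 3 (1.56 to 1.83, adjusted p 0.0503 to 0.0746), within sheet numbers 55 to 68 (0.95, adjusted p = 0.222), with the length trend removed (1.28, adjusted p = 0.0612) and without FPC-LIPA 36, 37 and 39 (0.50, adjusted p = 0.489). Slco1a4, at −0.63 ± 0.27, did not pass (adjusted p = 0.103). Slco1b2 was at −0.25 ± 0.28 (adjusted p = 0.530) and fell by 0.86 (adjusted p = 0.0274) without FPC-LIPA 36, 37 and 39.

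Ratios of 2 members within a library do not depend on its scaling, and they are given without a test. The log2 ratio of Slco1a4 to Slco1a1 had its lowest, median and highest library at −4.24, −3.14 and −1.79 in CON-GFP, at −5.96, −2.75 and −0.88 in FPC-GFP and at −2.62, −0.85 and 1.03 in FPC-LIPA. The groups overlapped, and only FPC-LIPA held libraries with more Slco1a4 than Slco1a1 counts. Abcb11 over Slc10a1, the export pump against the uptake carrier, was at −1.42, −0.92 and −0.36 in CON-GFP, at −0.71, 0.14 and 0.98 in FPC-GFP and at −0.77, 0.61 and 1.23 in FPC-LIPA. Abcc3 over Abcc2, the basolateral against the canalicular MRP, was at −1.33, −0.87 and −0.34, then −0.94, −0.43 and −0.06, and −0.95, −0.13 and 0.73, in the same order of groups. For both ratios the group medians stood in the order CON-GFP, FPC-GFP, FPC-LIPA, and neighbouring groups overlapped.

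**Figure D4:**
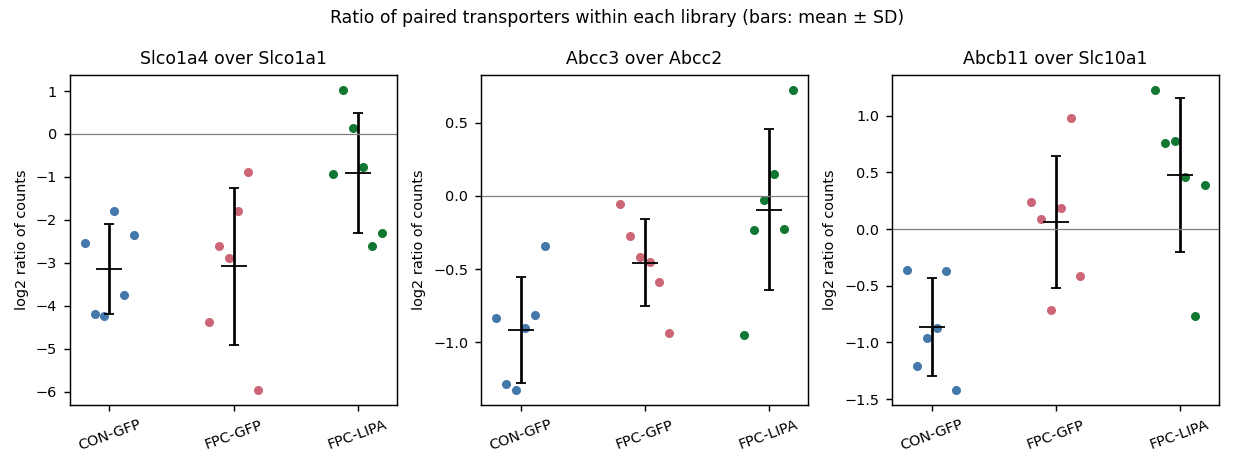
Log2 ratio of raw counts (vertical) of Slco1a4 over Slco1a1, Abcc3 over Abcc2 and Abcb11 over Slc10a1 in each library of the 3 groups, with points for libraries and bars for the mean ± SD (n = 6). The mean for Abcb11 over Slc10a1 is −0.87 in CON-GFP, 0.06 in FPC-GFP and 0.48 in FPC-LIPA.

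The genes whose log2 CPM ran most like Abcc4, by Pearson's r over the 18 libraries and among 12740 genes with at least 1 CPM on average, were Cbr3 (r = 0.96), a carbonyl reductase, Htatip2 (r = 0.96) and Gsta1 (r = 0.95), a glutathione S-transferase. Mean Cbr3 was 0.749 ± 0.329, 8.94 ± 7.56 and 25.8 ± 20.6 CPM in CON-GFP, FPC-GFP and FPC-LIPA (SD, n = 6). Those most like Slc51b were the pseudogene 2810025M15Rik (r = 0.91), Slbp (r = 0.91), which binds histone mRNA stem-loops, and Tmem160 (r = 0.91), all 3 with FPC-LIPA 37 as their highest library, as Slc51b has. These values describe the libraries, which share depth and composition, and carry no test.

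Of 31 other listed transporters of bile acids, organic ions and bile lipids, 23 were tested. On the diet 1 was DE, Slc22a7 (OAT2, a carrier of small organic anions), which fell from 71.7 ± 44.0 to 4.46 ± 3.52 CPM (−4.02 ± 0.53, adjusted p = 0.000254) without overlap. With LIPA, Slc22a7 fell again (−1.68 ± 0.54, adjusted p = 0.0397, to 1.38 ± 0.818 CPM) and Slco2a1, a prostaglandin carrier, fell by 1.06 ± 0.31 (adjusted p = 0.0300). Without FPC-LIPA 36, 37 and 39 the count of DE genes of this list was 0, as it was without any single one of them or of FPC-LIPA 31 or FPC-GFP 11, 12, 13 or 20. The diet count was 2 without CON-GFP 3, 6, 7 or 8 or FPC-GFP 13 or 20. The list's median was 0.07 and −0.12 in the 2 comparisons.

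Of 16 listed regulators, 14 were tested. None was DE on the diet, where edgeR's adjusted p was under 0.05 for 3 that rose and 4 that fell. Nr1h4 (FXR) fell by 0.34 ± 0.11 (adjusted p = 0.0354), Nr1i2 (PXR) by 0.67 ± 0.17 (adjusted p = 0.00994) and Nr1i3 (CAR) by 0.70 ± 0.19 (adjusted p = 0.0144), and Nfe2l2 (NRF2) rose by 0.41 ± 0.13 (adjusted p = 0.0293). Nr1i2 and Nr1i3 each passed in 22 of 23 alternatives, Nfe2l2 in 16 and Nr1h4 in only 12. Nr0b2 (SHP), an FXR target that represses bile acid synthesis, was at −0.94 ± 0.33 and did not pass (adjusted p = 0.0505). Hnf4a, the highest of the list, did not pass either (−0.15 ± 0.18, adjusted p = 0.550). With LIPA 1 of 14 was DE, and 5 fell by the adjusted p alone. Hnf4a fell by 0.98 ± 0.32 (adjusted p = 0.0425), less than the 2-fold threshold, while Nr1h4, Nr1i2, Nr1i3, Nfe2l2 and Nr0b2 did not pass (adjusted p 0.110 to 0.985). The fall of Hnf4a passed in only 10 of 24 alternatives (log2 fold change −1.18 to −0.46). Without FPC-LIPA 36, 37 and 39 the count with LIPA was 0 of 14, and it was 2 without FPC-GFP 19 and 3 without FPC-LIPA 33 or 34. The diet count was 1 without CON-GFP 2, 6 or 8 or FPC-GFP 12 or 19.

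Of 9 genes of bile acid synthesis, all tested, 2 were DE on the diet, both lower. Akr1d1, the reductase of bile acid intermediates, fell from 203 ± 57.5 to 52.8 ± 24.7 CPM (−1.95 ± 0.27, adjusted p = 0.000349), and Cyp7b1 of the alternative pathway fell by 1.08 ± 0.38 (adjusted p = 0.0495). With LIPA Cyp7b1 was the 1 DE gene (−1.01 ± 0.30, adjusted p = 0.0328), and none was without FPC-LIPA 36, 37 and 39. Slc27a5, the highest of the list, which activates bile acids for conjugation, did not pass (−0.34 ± 0.14, adjusted p = 0.0959, and −0.17 ± 0.20, adjusted p = 0.531). The list's median was −0.27 on the diet and −0.17 with LIPA. The diet count was 1 without CON-GFP 1, 2 or 3 or FPC-GFP 13 or 19, 3 without CON-GFP 6 or FPC-GFP 20 and 4 without CON-GFP 8, and leaving out any of FPC-LIPA 31, 37, 39 and FPC-GFP 11, 12, 13, 20 brought the count with LIPA to 0.

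Of 10 genes known to be induced through xenobiotic receptors or NRF2, 3 were DE on the diet and 3 with LIPA, all higher. On the diet these were Gsta1 (2.85 ± 0.39, adjusted p = 0.000349), Gstm3 (3.03 ± 0.46, adjusted p = 0.000637) and Srxn1 (2.02 ± 0.48, adjusted p = 0.00865), each without overlap, as for Abcc4. With LIPA they were Cyp3a11 (1.41 ± 0.36, adjusted p = 0.0204), the highest of the list, Nqo1 (1.18 ± 0.35, adjusted p = 0.0326) and Cyp2c55 (1.27 ± 0.40, adjusted p = 0.0392), and none was DE without FPC-LIPA 36, 37 and 39. The count with LIPA was 1 without any single one of these 3 libraries or of FPC-GFP 11, 12, 13, 16 or 20. Cyp3a11 did not pass on the diet (0.34 ± 0.24, adjusted p = 0.304). Srxn1 was spread widely in FPC-GFP (178 ± 211 CPM). Its diet change was 1.08 to 2.19 when 1 library was left out, and it passed in all 23 alternatives. The list's median was 0.78 on the diet and 0.29 with LIPA.

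Since Slco1a1 is male-predominant in mouse liver, genes with a sex bias were listed too. Of 14 male-predominant genes 5 were DE on the diet, all lower, among them Susd4 (−1.69 ± 0.32, adjusted p = 0.00227), C8b (−1.83 ± 0.38, adjusted p = 0.00391), Cyp4a12b (−1.12 ± 0.33, adjusted p = 0.0240) and Selenbp2 (−2.37 ± 0.71, adjusted p = 0.0255). With LIPA 10 of 14 were DE, 9 lower and 1 higher. Cyp4a12b (−2.13 ± 0.40, adjusted p = 0.0110), Cyp2d9 (−1.43 ± 0.27, adjusted p = 0.0110), Cyp4a12a (−1.60 ± 0.32, adjusted p = 0.0121) and Serpina1e (−4.27 ± 0.85, adjusted p = 0.0122) fell, and Mup20, a urinary pheromone carrier and the highest of the list, rose (2.26 ± 0.52, adjusted p = 0.0159) after a change of −0.25 ± 0.21 on the diet (adjusted p = 0.397). Mup20 varied widely in FPC-LIPA (11753 ± 10398 CPM), and its change was 0.73 to 2.47 over 24 alternatives, of which 22 passed. Without FPC-LIPA 36, 37 and 39, 3 of the 14 were DE with LIPA. On the diet 2 were DE without FPC-GFP 16 or 19 and 3 without CON-GFP 1 or 3 or FPC-GFP 13. Of 16 female-predominant genes 10 were tested and 1 was DE in each comparison, Cyp2a4 on the diet (5.84 ± 0.85, adjusted p = 0.000474) and Hao2 with LIPA (1.85 ± 0.51, adjusted p = 0.0264). Cyp2a4 did not pass with LIPA (1.04 ± 0.70, adjusted p = 0.277). Leaving out 1 library gave 1 to 3 DE genes of this list on the diet (3 without FPC-GFP 20, 2 without CON-GFP 6, 7 or 8 or FPC-GFP 11) and 0 to 2 with LIPA (2 without FPC-LIPA 33, and 0 when the library left out was FPC-LIPA 36, 37 or 39 or FPC-GFP 11 or 12).

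Hepatocyte markers defined all libraries, with 50812 to 100839 CPM summed over 8 genes (Alb, Apoa1, Ttr, Cps1, Fga, Tat, Asgr1 and Hpx). Of these 8, on the diet Tat was DE (lower) and Asgr1 also fell by the adjusted p alone, and with LIPA none was (Hpx rose by the adjusted p alone). Markers of other cells were followed too. The 8 leukocyte markers summed to 70.0–147 CPM (CON-GFP), 186–429 CPM (FPC-GFP) and 541–836 CPM (FPC-LIPA), with 4 of 8 DE and higher in each comparison. With LIPA these were Ptprc, Lyz2, Itgam and S100a8. Lyz2 made up most of the rise in the sum, with group means of 136 CPM in FPC-GFP and 500 CPM in FPC-LIPA. Cd74 (113 and 111 CPM), Cd68, Cd3e and Cd79a did not pass with LIPA. The 5 Kupffer cell markers summed to 97.7 to 207, 289 to 485 and 383 to 766 CPM, with 5 of 5 DE and higher on the diet and 0 of 5 with LIPA by edgeR, where 2 of 5 passed by the adjusted p alone. The 8 cholangiocyte markers, of which 7 were tested and none was DE in either comparison, summed to 56.4 to 88.6, 92.3 to 161 and 68.3 to 227.9 CPM, with Krt19 at 1.04 to 1.64 CPM and Cftr under 0.45 CPM as group means. On the diet 2 of the 7, Spp1 and Slc4a2, rose by the adjusted p alone. These 2 genes made up most of the sums. Group means in CON-GFP, FPC-GFP and FPC-LIPA were 31.6, 61.4 and 78.7 CPM for Spp1 and 26.4, 34.2 and 23.6 CPM for Slc4a2. The 6 endothelial markers (0 of 6 DE in each comparison, 3 of 6 and 0 of 6 by the adjusted p alone) and the 6 stellate cell markers (2 of 6 DE on the diet and 1 of 6 with LIPA, all higher) summed to at most 322 and 1073 CPM. Endothelial sums were 125 to 205 (CON-GFP), 173 to 218 (FPC-GFP) and 207 to 322 CPM (FPC-LIPA). Stellate sums were 164 to 279, 213 to 284 and 298 to 1073 CPM, and 3 of 6 rose with LIPA by the adjusted p alone. The kidney markers Umod, Slc34a1 and Kap summed to at most 0.0794 CPM, and of the intestinal markers Fabp2, which hepatocytes also express, was DE with LIPA (1.95 ± 0.44, adjusted p = 0.0157) while Fabp6 was at 0 in all libraries. In bulk liver, fewer cells of a type and less RNA per cell cannot be told apart, and the part of these markers in the members' values was not tested.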

How the data were processed

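Total liver RNA of 18 mice, 6 per group and 1 library per mouse, was sequenced and aligned to mm10. The authors deposited raw read counts per gene for each library, made with HISAT2 2.1.0 and Subread according to the submitters' processing notes. Which of the kits named was used (a TruSeq RNA kit or a stranded mRNA kit), the strand setting, the annotation version and the treatment of reads with several matches are not given in the sources used here. Of the 23 columns, 5 matched no sample analysed here and were not used. Total counts per library (16632146 to 37739301) limit the precision of low genes such as Slc51b.

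Groups came from the labels. Genes were filtered with filterByExpr and scaled by TMM, and each comparison was fitted on its own 12 libraries with the quasi-likelihood test of edgeR 4.0.16 (R 4.3.3), with Benjamini-Hochberg adjustment over all tested genes. All p-values in the text come from this test unless another tool is named. DE means a fold change of at least 2 with an adjusted p under 0.05. SE was the absolute log2 fold change over the root of the F statistic. CPM was computed with TMM factors over 18 libraries, log2 CPM with a prior count of 2, and RPKM as CPM per kilobase of union exon in GENCODE M21, which also gave coordinates (GRCm38) and GC content. On simulated data for FPC-GFP against CON-GFP (14307 genes), 182 of 200 changed genes were recovered and 3 unchanged genes were called. Recovery at the members' own fold changes was not tested, nor was recovery in the comparisons with FPC-LIPA. Alternatives covered scaling, DESeq2 1.42.0, filters, thresholds, all 18 libraries in 1 fit, sample sheet numbers 55 to 68 alone, removal of trends on transcript length or GC content (splines with 5 df), and leaving out libraries. P-values set the group difference against the variation between libraries. With 1 library per mouse, that variation holds differences between mice and between libraries together.

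The members, lists and tests were chosen with earlier results of these data known. All 10 members are reported. Of each other list, DE genes (at most 4 with the smallest adjusted p) and the gene of highest mean CPM are named, along with 5 regulators. A few results of these lists are not reported here. The 2 motifs were chosen after the sequences were seen. Tables and plots were made with pandas 2.3.3, numpy 2.4.6 and, for plots, matplotlib 3.10.9 under Python 3.11.15.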

Additional observations from a re-analysis of the deposited data

Results flagged for a closer look

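In 4 of the 30 pairs of a member and a group, 1 library lay far from the other 5 by Dixon's ratio of its gap to the group's range (above the 95% critical value for 6 samples). Chance flags about 1 in 20 such groups, or 1.5 of 30. Slc10a1 was 699 CPM in CON-GFP 8 (ratio 0.644). Slco1a1 was 657 CPM in CON-GFP 2 (ratio 0.684) and 399 CPM in FPC-GFP 20 (ratio 0.747). Slc51b was 6.83 CPM in FPC-LIPA 37 (ratio 0.729). CON-GFP 2, FPC-GFP 20 and FPC-LIPA 37 are the 3 libraries of lowest total count.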

How the results depend on the processing

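No paired analysis was possible because the mouse numbers of the groups differ. On the diet the count of DE members, 3, was 5 with a minimum fold change of 1.5 and 2 to 3 when 1 library was left out. The count by the adjusted p alone, 6, was 3 with all 18 libraries in one fit and 4 to 6 when 1 library was left out. With LIPA the 2 DE members became 0 with library size alone, with sample sheet numbers 55 to 68, without FPC-LIPA 36, 37 and 39, and at an adjusted p under 0.01. They became 1 with no filter, with a filter of 1 CPM (Slc51b was then not tested) and with the length trend removed, and 0 to 2 when 1 library was left out. The count by the adjusted p alone, 2, was 1 with library size alone and with the 1 CPM filter, 4 with all libraries in one fit, 0 within sheet numbers 55 to 68 and without the 3 libraries, and 0 to 3 when 1 library was left out. For FPC-LIPA against CON-GFP the counts were 3 to 4 and 3 to 5 when 1 library was left out.

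Genes DE in all with LIPA, 1671, were 1016 with library size alone, 96 within sheet numbers 55 to 68 and 116 without the 3 libraries. Leaving out 1 library gave 2612 without FPC-LIPA 33, 856, 902 and 950 without FPC-LIPA 36, 37 and 39, and 1028, 1049 and 1026 without FPC-GFP 11, 12 and 20. For FPC-LIPA against CON-GFP they were 2176, and 1107 within the sheet numbers. Library size alone moved the median of all genes by 0.20 on the diet and by −0.13 with LIPA. The causes were not tested.

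The sign turned for some values that had not passed. Abcc2 on the diet was −0.011 with DESeq2's size factors and with its Wald test, −0.000801 within the sheet numbers and −0.045 with the length trend removed, and −0.063 to 0.089 when 1 library was left out, where Slc51b was −0.076 to 0.24. With LIPA, Abcb11 was 0.026 without the 3 libraries, Abcc3 was 0.11 with the GC trend removed, and Slco1b2, 0.53 as reported, was −0.13 in both of these settings. Against CON-GFP, Abcb11 in FPC-LIPA was 0.10 with library size, 0.000812 with size factors, 0.082 with upper-quartile factors, 0.000777 by the Wald test, 0.040 with the 1 CPM filter, 0.029 in one fit, 0.015 within the sheet numbers, 0.029 with the length trend removed and 0.22 without the 3 libraries (−0.081 to 0.10 when 1 was left out). Abcb4 was 0.063, 0.019, 0.00446, 0.061 and 0.25 with library size, upper-quartile factors, the sheet numbers, the length trend removed and without the 3 libraries (−0.18 to 0.030 when 1 was left out). Hnf4a was 0.044 on the diet with library size, Slc27a5 0.043 with LIPA with the GC trend removed, and Mup20 0.00773 on the diet with the length trend removed. With LIPA, Nr1i2 was −0.13 with library size, −0.050 with no filter, −0.032 with the length trend removed and −0.061 without the 3 libraries (−0.19 to 0.088 when 1 was left out), and Nr1i3 was −0.043 with library size (−0.17 to 0.22 when 1 was left out).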
